A study of Homo sapiens with 24 samples.

Results

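SRGN and DHRS2 are 2 of the 19775 genes that have a probe set with a single gene symbol on the array used, and 5 of its 54675 probe sets measure them. They were chosen because their signal was higher in cells treated with azacytidine and other compounds, in the same 11 groups described below. Their levels and differences are therefore given as a description, with no test. SRGN encodes serglycin, the core protein of a small proteoglycan whose serine-glycine repeats carry glycosaminoglycan chains. In mast cells, cytotoxic lymphocytes and other blood cells serglycin packs proteases, perforin and granzymes into secretory granules, and it is best known from those cells rather than from colon epithelium. DHRS2, also called HEP27, is a short-chain dehydrogenase/reductase, a member of an enzyme family that moves hydrogen between hydroxyl and carbonyl groups with a nicotinamide cofactor. DHRS2 protein has been reported to bind MDM2, the ubiquitin ligase that limits p53.

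RNA was measured on 24 Affymetrix HG-U133 Plus 2.0 arrays in HCT116, an established human colorectal carcinoma line, after 72 h of treatment in medium with 5% fetal bovine serum. Decitabine (DAC) is an analogue of deoxycytidine, and azacytidine (Aza) is an analogue of cytidine. Built into DNA, they bind DNA methyltransferases covalently, and methylation is then lost as cells divide. The treated groups, of 2 arrays each, were DAC at 5 µM and 120 nM, G669071 at a higher and a lower dose, G668684 at 7 µM and 150 nM, Aza at 1500 nM and 150 nM, and G669043 at 1500 nM and 150 nM. The control group received only the solvent, dimethyl sulfoxide (DMSO), which all treated cells also received, and had 4 arrays. G669071, G668684 and G669043 are prodrugs that the labels give by code name, with the prefix phos for G669071 and ester for G668684 in the titles. The doses of G669071 are 63 µM and 6 µM in the sample titles but 120 nM and 6 nM in the source names, so they are called higher and lower here. For G669043 the sample titles add the prefix Aza, which the source names lack. No label says whether the arrays of a group came from separate cultures, so the spread between them may be technical. All comparisons with DMSO share the same 4 arrays.

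The values are log2 of the deposited robust multi-array average (RMA) intensities, and the arrays had medians between 6.46 and 6.58. All 17 colon epithelial markers examined, among them EPCAM, KRT8 and KRT18, averaged at least 5 in DMSO arrays, the level used as a filter on dim probe sets. That level lies below the array medians, and 19 of 20 tested blood cell markers also reached it. Reaching it therefore does not show the identity of the cells. The DMSO arrays fell into 2 pairs. Over all tested genes, arrays 1 and 2 correlated at 0.997, as did arrays 3 and 4, while correlations across the pairs were 0.990 to 0.991. The 3′ minus 5′ signal of beta-actin, a sign of RNA integrity, was -0.03 and 0.00 log2 in DMSO arrays 1 and 2, and 0.24 and 0.15 in DMSO arrays 3 and 4. SRGN differences are given below against each pair as well.

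The promoter window of DHRS2 is shown because DAC and Aza act on cytosine methylation, which in human DNA falls mainly on the dinucleotide CG. It runs from 250 bases before to 50 bases after the annotated start (RefSeq, GRCh38.p14, chr14:23629865-23630164, plus strand), with TATAAA in capitals. The window of CPED1, the gene whose group means were most like those of DHRS2, is shown for contrast (chr7:120988461-120988760, plus strand), with each CG in capitals.
DHRS2: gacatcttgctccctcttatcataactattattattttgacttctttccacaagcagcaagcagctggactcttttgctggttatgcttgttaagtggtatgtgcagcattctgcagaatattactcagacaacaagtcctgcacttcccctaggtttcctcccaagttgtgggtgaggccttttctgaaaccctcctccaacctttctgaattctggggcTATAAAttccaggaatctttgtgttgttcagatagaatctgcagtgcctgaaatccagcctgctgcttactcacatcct
CPED1: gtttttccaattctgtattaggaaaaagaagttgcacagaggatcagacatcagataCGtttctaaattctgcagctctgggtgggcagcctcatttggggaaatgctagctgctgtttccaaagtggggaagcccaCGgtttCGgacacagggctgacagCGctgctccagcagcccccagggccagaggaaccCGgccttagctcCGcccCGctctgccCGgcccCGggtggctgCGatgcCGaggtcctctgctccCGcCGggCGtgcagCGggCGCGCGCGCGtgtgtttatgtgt
The DHRS2 window held 0 CG dinucleotides and the CPED1 window held 20. Among 35114 human promoter windows of the same length, 1391 (3.96%) had no CG, and the median was 14. TATAAA began 29 bases before the DHRS2 start, and 11.5% of all windows held it on either strand. GGGCGG, which itself contains a CG, was also searched on both strands. It was present in the CPED1 window, absent from the DHRS2 window and present in 45.0% of all windows. These are matches of letters in the reference, not measurements of binding or methylation.

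SRGN was dim in DMSO cells and gave a clear signal in most treated groups. Probe set 201859_at, the brightest of its 3 probe sets, stands for the gene. It read 8.15 and 8.20 log2 with DAC at 5 µM, and 7.83 and 8.38 with DAC at 120 nM. G669071 gave 8.32 and 8.31 at its higher dose and 7.98 and 7.89 at its lower dose. G668684 gave 8.12 and 8.18 at 7 µM, and 8.18 and 8.56 at 150 nM. In all 6 of these groups both arrays exceeded every Aza array. Aza at 1500 nM gave 6.33 and 6.21, and Aza at 150 nM gave 6.02 and 6.13. G669043 gave 7.49 and 7.52 at 1500 nM, against 4.81 and 4.80 at 150 nM. The high dose of that prodrug thus lay between Aza and DAC, while its low dose lay within the range of the solvent arrays. DMSO arrays read 4.19, 3.59, 4.90 and 4.69, a mean of 4.34 ± 0.58 (SD, n = 4), all under the filter level of 5. The deposited table has no detection calls, so the DMSO level of SRGN may be background, and fold changes against it have no settled size.

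DHRS2 was bright in every group, DMSO included, which gives its differences a firmer base. Probe set 214079_at, the brighter of its 2 probe sets, read 11.55 and 11.73 with DAC at 5 µM, and 12.17 and 12.47 with DAC at 120 nM. G669071 gave 11.96 and 12.00 at the higher dose, and 12.45 and 12.40 at the lower dose. G668684 gave 11.66 on both arrays at 7 µM, and 12.36 and 12.48 at 150 nM. In these 3 compounds the lower dose was the brighter of the pair. Aza gave 11.42 and 11.31 at 1500 nM, and 11.19 and 11.27 at 150 nM. G669043 gave 12.36 and 12.52 at 1500 nM, among the highest readings of the gene, against 10.09 and 9.79 at 150 nM. DMSO arrays read 9.61, 9.47, 9.81 and 9.58, a mean of 9.62 ± 0.14 (SD, n = 4). Both genes lay above all 4 DMSO arrays on both arrays of 9 of the 10 treated groups, and the exception for both was G669043 at 150 nM, which overlapped DMSO. Among all 18055 tested genes, the share for which both treated arrays exceeded every DMSO array was 21.6% with DAC at 5 µM, 15.9% with DAC at 120 nM, 20.0% and 15.6% with G669071 at the higher and lower dose, and 20.7% and 15.0% with G668684 at 7 µM and 150 nM. It was 15.1% and 9.36% with Aza at 1500 nM and 150 nM, and 12.5% and 12.2% with G669043 at the same doses. Because the genes were picked on these contrasts, nothing is read from their count.

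**Figure D1:**
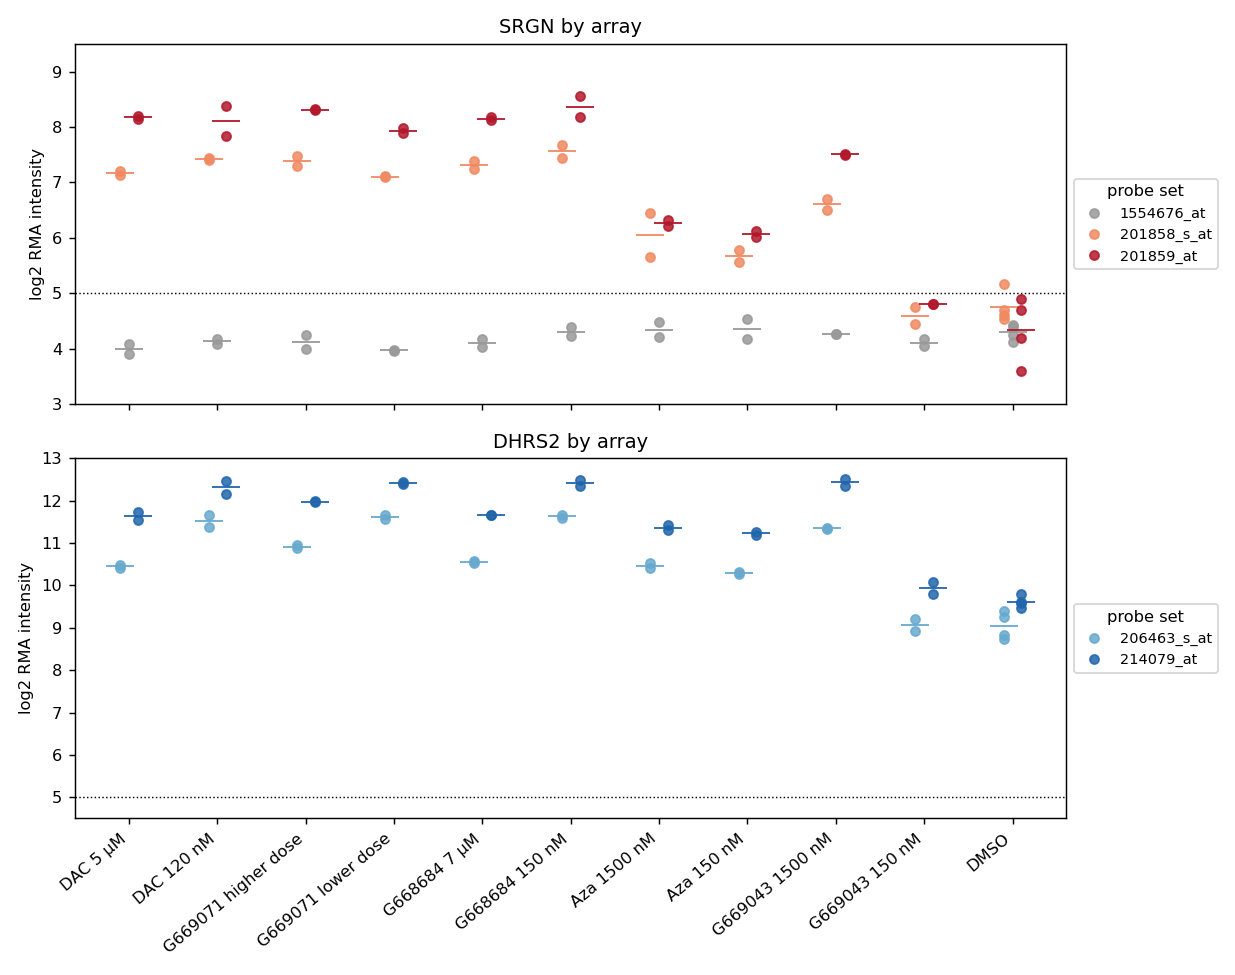
Log2 RMA intensity (y axis) of the 3 SRGN and 2 DHRS2 probe sets in each group (x axis), with a point for each array, a dash for the group mean and a dotted line at the filter level of 5. SRGN probe set 201859_at lies between 7.83 and 8.56 in the DAC, G669071 and G668684 groups and between 6.02 and 6.33 in the Aza groups, while DMSO arrays reach at most 4.90.

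The fit over all arrays gave SRGN an SE of 0.23 in each comparison of a treated group with DMSO. The SRGN difference was 1.93 log2 with Aza at 1500 nM and 1.73 with Aza at 150 nM. It was 3.16 with G669043 at 1500 nM and 0.46 with G669043 at 150 nM. The remaining groups gave between 3.59, with G669071 at the lower dose, and 4.03, with G668684 at 150 nM. Against DMSO arrays 1 and 2 alone the SRGN difference was 2.38 with Aza at 1500 nM, 2.19 with Aza at 150 nM, 3.62 with G669043 at 1500 nM and 0.92 with G669043 at 150 nM. Against DMSO arrays 3 and 4 alone the values in the same order of groups were 1.475, 1.28, 2.71 and 0.01. The size of the SRGN difference therefore moved with the solvent pair, and with G669043 at 150 nM it was near 0 against arrays 3 and 4.

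For DHRS2 the SE was 0.10. Its difference from DMSO was 1.75 log2 with Aza at 1500 nM, a 3.36-fold ratio, and 1.61 with Aza at 150 nM, a 3.06-fold ratio. With G669043 it was 2.82 at 1500 nM, a 7.07-fold ratio, and 0.32 at 150 nM, a 1.25-fold ratio. DAC gave 2.02 at 5 µM and 2.70 at 120 nM. G669071 gave 2.36 at the higher and 2.81 at the lower dose, and G668684 gave 2.04 at 7 µM and 2.80 at 150 nM.

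The order of the group means was read with a fixed rule: neighbours differ beyond their spread where their arrays do not overlap and their means lie more than 2 pooled SDs apart. The pooled SD was 0.312 for SRGN and 0.123 for DHRS2. SRGN means ran from 8.37 with G668684 at 150 nM through 8.315 with G669071 at the higher dose, 8.175 with DAC at 5 µM, 8.15 with G668684 at 7 µM, 8.105 with DAC at 120 nM and 7.935 with G669071 at the lower dose to 7.505 with G669043 at 1500 nM. By this rule no neighbours among these 7 groups differed beyond their spread. The pooled SD of SRGN, however, includes the wide spread of the dim DMSO arrays (SD 0.58). G669043 at 1500 nM lay 0.43 below G669071 at the lower dose, and their arrays did not overlap, at 7.49 and 7.52 against 7.98 and 7.89. After the 7 groups came a gap of 1.24 to Aza at 1500 nM (6.27), which did not differ beyond its spread from Aza at 150 nM (6.07). A second gap, of 1.27, separated these from G669043 at 150 nM (4.805), which did not differ beyond its spread from DMSO (4.34). On probe set 201858_s_at the order had 1 more step, as G669043 at 1500 nM (6.605) lay 0.50 below G669071 at the lower dose (7.105), beyond the spread.

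DHRS2 had a different order, led by G669043 at 1500 nM (12.44). G669071 at the lower dose (12.425), G668684 at 150 nM (12.42) and DAC at 120 nM (12.32) followed without a difference beyond the spread. Then came G669071 at the higher dose (11.98) and, below it, G668684 at 7 µM (11.66) with DAC at 5 µM (11.64), each step beyond the spread. The Aza groups followed at 11.365 for 1500 nM and 11.23 for 150 nM, below DAC at 5 µM by more than the spread on this probe set and not apart from each other. On 206463_s_at DAC at 5 µM (10.45) and Aza at 1500 nM (10.465) did not differ beyond their spread. G669043 at 150 nM (9.94) lay 1.29 below Aza at 150 nM, beyond the spread, and its arrays overlapped those of DMSO (9.62).

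On probe set 201859_at, the lowest SRGN array with DAC, G669071 or G668684 was 7.83, above the highest Aza array at 6.33. The matching values for DHRS2 on probe set 214079_at were 11.55 and 11.42. On the other DHRS2 probe set, 206463_s_at, the arrays overlapped, at 10.41 and 10.49 with DAC at 5 µM against 10.52 and 10.41 with Aza at 1500 nM. Doses differed between these compounds and Aza except at 150 nM, where 3 compounds can be set side by side. At 150 nM SRGN averaged 8.37 with G668684, 6.07 with Aza and 4.805 with G669043. DHRS2 averaged 12.42, 11.23 and 9.94 with the same 3 compounds.

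G669043 and Aza were given at 2 shared doses, and the order of the compounds turned between them. At 1500 nM SRGN was higher with G669043 than with Aza by 1.24 ± 0.27 (SE) and DHRS2 by 1.075 ± 0.11. At 150 nM SRGN was lower with G669043 than with Aza, at -1.27 ± 0.27, and DHRS2 at -1.29 ± 0.11. The arrays of the compounds did not overlap for either gene at either dose. The beta-actin 3′ minus 5′ signal was 0.07 and 0.34 in the G669043 arrays at 1500 nM, against 0.04 and -0.01 in the Aza arrays. With that signal as a covariate, the differences at 1500 nM were 0.80 for SRGN and 0.90 for DHRS2.

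Between the doses of a compound, SRGN differed most with G669043. The higher minus the lower dose gave 0.07 with DAC, 0.38 with G669071, -0.22 with G668684 and 0.20 with Aza, each with an SE of 0.27, against 2.70 with G669043. The arrays at the 2 doses overlapped with DAC and G668684 and not with the other compounds. For DHRS2 the same difference was -0.68 with DAC, -0.445 with G669071 and -0.76 with G668684, each with an SE of 0.11. It was 0.135 with Aza and 2.50 with G669043. DHRS2 was thus lower at the higher dose of 3 compounds and higher at the higher dose of G669043, with no overlap of arrays in these 4 compounds. The Aza arrays at the 2 doses did not overlap either, at 11.42 and 11.31 against 11.19 and 11.27, although their means lay within the spread.

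**Figure D2:**
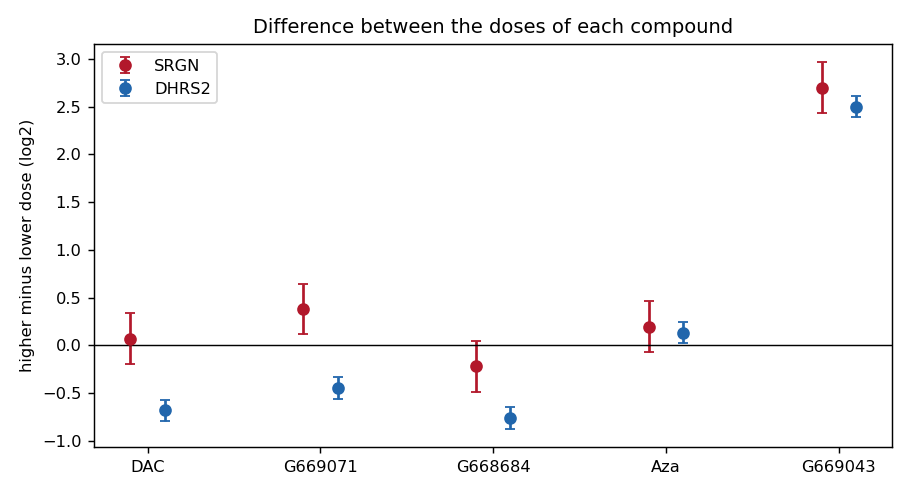
Difference in log2 RMA intensity between the higher and the lower dose of each compound (y axis) for SRGN and DHRS2, as points with bars of 1 SE. DHRS2 lies below 0 with DAC, G669071 and G668684, between -0.76 and -0.445, while with G669043 both genes lie far above it, at 2.70 and 2.50.

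The other probe sets of the genes differed in brightness, and 1 of them showed no response. SRGN probe set 201858_s_at correlated at 0.989 with 201859_at over the 11 group means. It read 6.44 and 5.66 with Aza at 1500 nM, 5.56 and 5.78 with Aza at 150 nM, 6.70 and 6.51 with G669043 at 1500 nM, and 4.75 and 4.44 with G669043 at 150 nM. The DMSO arrays read 4.69, 5.16, 4.53 and 4.61, so the Aza arrays lay above all of them and G669043 at 150 nM did not. SRGN probe set 1554676_at stayed between 3.90 and 4.53 on all 24 arrays, reached the filter on 0 of them and was left out of the fit. DHRS2 probe set 206463_s_at correlated at 0.984 with 214079_at over the group means. It read 10.52 and 10.41 with Aza at 1500 nM, 10.31 and 10.28 with Aza at 150 nM, 11.33 and 11.36 with G669043 at 1500 nM, and 9.22 and 8.93 with G669043 at 150 nM, against 9.25, 9.39, 8.84 and 8.73 with DMSO. Its brightest group was G668684 at 150 nM, with a mean of 11.63, so the first place of G669043 at 1500 nM in the DHRS2 order rests on 214079_at.

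SRGN and DHRS2 correlated at 0.914 over the 11 group means. Likeness was computed against 367 other genes whose group means had an SD of at least 0.5, all of which share the arrays and the DMSO group. Among them DHRS2 was the 71st most like SRGN, and SRGN was the 7th most like DHRS2. The median correlation with SRGN was 0.815 and 86 genes exceeded 0.9, while the median with DHRS2 was 0.545 and 10 genes exceeded 0.9. Among these 367 genes, kept for large changes over the same groups, the pattern of SRGN was therefore shared by many and that of DHRS2 by few. This does not extend to genes outside that set.

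The genes most like SRGN were GARIN5A (0.990), HCLS1 (0.984), GNG11 (0.981), SPARC (0.978) and MAGEA11 (0.973). HCLS1 encodes an actin-binding adaptor of blood cells. Its mean was 7.27 with Aza at 1500 nM, 6.595 with Aza at 150 nM, 7.915 with G669043 at 1500 nM and 5.885 with G669043 at 150 nM, against 6.07 with DMSO. GNG11, a G protein gamma subunit, averaged 6.60, 5.81, 7.23 and 5.44 in the same 4 groups, against 5.18 with DMSO. MAGEA11 is a cancer-testis gene on the X chromosome, and it averaged 6.615, 5.34, 7.365 and 4.305 in those groups, against 4.765 with DMSO. SPARC, a secreted collagen-binding protein, was placed through a probe set of the _s_at type, and its other kept probe set moved by only 0.09 with Aza at 1500 nM. When likeness was computed over the 24 single arrays, 3 of these 5 genes stayed among the closest.

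The genes most like DHRS2 were CPED1 (0.943), NXT2 (0.942), COL6A3 (0.929), PRF1 (0.924) and SGK1 (0.917). NXT2, a nuclear export factor, averaged 11.925 with Aza at 1500 nM, 11.855 with Aza at 150 nM, 12.38 with G669043 at 1500 nM and 11.01 with G669043 at 150 nM, against 10.41 with DMSO. COL6A3, a chain of type VI collagen, averaged 7.425, 6.725, 7.92 and 6.39 in the same 4 groups, against 5.94 with DMSO. SGK1, a kinase that regulates ion transport, averaged 8.71, 8.015, 8.575 and 7.43, against 7.125 with DMSO. At 1500 nM its mean was lower with G669043 than with Aza, while that of DHRS2 was higher. Over single arrays, 4 of these 5 genes stayed among the closest. Among the 9 of the 10 like genes with a promoter window in the RefSeq table, CG counts ran from 4 in COL6A3 to 21 in MAGEA11, and none had the 0 of DHRS2.

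**Figure D3:**
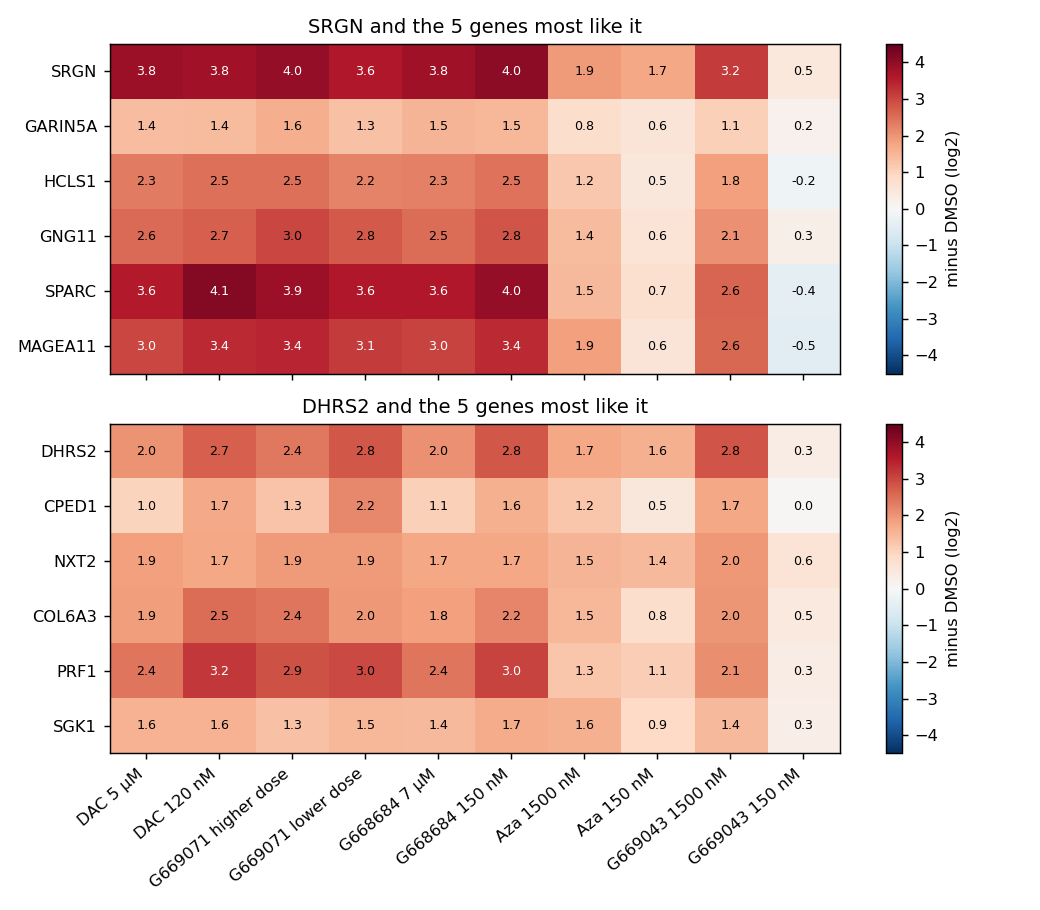
Group mean minus DMSO mean (log2, colour and number) in the 10 treated groups for SRGN, DHRS2 and the 5 genes most like each of them over the 11 group means. With Aza at 150 nM the differences of SRGN, DHRS2, NXT2 and PRF1 exceed 1, while those of the other genes shown stay under it.

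Of the genes for proteins that serglycin packs in granules, PRF1 was the 1 called. The counts that follow come from the fit over all genes, at a limma adjusted p (Benjamini-Hochberg) under 0.05. In that fit 8.13% of genes were called higher and 9.18% lower with Aza at 1500 nM, and 5.88% higher and 3.25% lower with G669043 at 1500 nM. At 150 nM the shares were 1.03% and 0.46% with Aza, 1.49% either way, and 0.709% and 0.161% with G669043, 0.87% either way. For G669043 against Aza they were 1.47% higher and 0.659% lower at 1500 nM, 2.13% either way. At 150 nM they were 0.0111% higher and 0.0554% lower, 0.0665% either way. For the list counts at an unadjusted p under 0.05 given below, no share over all genes is given for this fit, so nothing is read from them. Of 20 tested genes for proteins stored with serglycin in granules, 1 was higher and 0 lower in each comparison with DMSO and for G669043 against Aza at 1500 nM. For G669043 against Aza at 150 nM 0 were higher and 1 lower. At 1500 nM 1 of 20 is near the shares over all genes called higher with each compound. With a single gene called, these counts are no result about the granule proteins. The called gene was PRF1 each time, which encodes the pore-forming protein perforin and was also picked above for its likeness to DHRS2, so its values are given without a p. PRF1 read 9.36 and 9.26 with Aza at 1500 nM, 9.09 and 9.19 with Aza at 150 nM, 10.07 and 10.20 with G669043 at 1500 nM, and 8.46 and 8.33 with G669043 at 150 nM. The DMSO arrays read 8.05, 8.17, 8.04 and 7.93. The PRF1 difference was 1.26 ± 0.08 (SE) with Aza and 2.09 ± 0.08 with G669043 at 1500 nM. At 150 nM with G669043 it was 0.35 ± 0.08, a call that was lost without DMSO array 1, DMSO array 4 or either treated array. For G669043 against Aza it was 0.825 ± 0.09 at 1500 nM and -0.745 ± 0.09 at 150 nM. The rest of the list lay close to 0, with a median of 0.06 with Aza and -0.07 with G669043 at 1500 nM.

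Because SRGN, HCLS1 and PRF1 are best known from blood cells, markers of those cells were examined beside them. Of 20 tested markers, 0 were called with Aza at 1500 nM by limma, and 3 were higher and 0 lower at an unadjusted p under 0.05. With G669043 at 1500 nM 1 was higher, CORO1A, an actin-binding protein of white blood cells, at 0.695 ± 0.09 (adjusted p = 1.7e-05). The summed linear intensity of the 20 markers was 2833 to 2984 with Aza and 2850 to 2936 with G669043 at 1500 nM, against 2628 to 2989 with DMSO. At 150 nM it was 2823 to 2880 with Aza and 2567 to 2626 with G669043. Of these markers 19 averaged at least 5 in DMSO arrays, and without detection calls that level does not show that they were expressed. The part of other cells in the SRGN signal was not tested. Of the 17 colon epithelial markers, 5 were higher and 2 lower with Aza at 1500 nM, and 5 higher and 0 lower with G669043 at 1500 nM. Without any 1 of DMSO arrays 3 and 4 or the Aza arrays the count of 5 with Aza was 3, and without either G669043 array the count was 2. KRT20, a keratin of differentiated gut epithelium, rose by 1.20 ± 0.10 with Aza (adjusted p = 8.4e-08) and by 1.81 ± 0.10 with G669043 (adjusted p = 2.4e-10). The 2 lower with Aza were CDH1, the epithelial adhesion protein E-cadherin, at -0.655 ± 0.09 (adjusted p = 6.0e-05), and CLDN4, a tight junction protein, at -0.465 ± 0.08 (adjusted p = 5.7e-04). Both kept probe sets of CDH1 moved that way, but only 1 of the 2 kept probe sets of CLDN4 did.

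Of 32 tested proteoglycan core proteins, the carriers of glycosaminoglycan chains, SRGN not among them, 4 were higher and 3 lower with Aza at 1500 nM, and 4 higher and 1 lower with G669043 at 1500 nM. Over all genes the shares called higher and lower were 8.13% and 9.18% with Aza, and 5.88% and 3.25% with G669043. Beside them, the small counts of core proteins are no result about that group. Medians were 0.07 and -0.06, against 0.03 and -0.01 for all genes. SDC4, a membrane heparan sulfate proteoglycan, rose by 0.70 ± 0.05 with Aza (adjusted p = 3.1e-08) and by 0.43 ± 0.05 with G669043 (adjusted p = 2.9e-05). SDC1, its relative on epithelial cells, rose by 0.63 ± 0.07 with Aza (adjusted p = 4.7e-06) and by 0.44 ± 0.07 with G669043 (adjusted p = 3.8e-04). VCAN, which encodes the matrix proteoglycan versican, rose by 0.55 ± 0.10 with G669043 (adjusted p = 0.0015), which became 0.081 without its array 2. The 3 lower with Aza were COL18A1, a basement membrane collagen, at -0.49 ± 0.08 (adjusted p = 3.8e-04), CSPG5 at -0.355 ± 0.11 (adjusted p = 0.025) and TGFBR3, a co-receptor for TGF-beta, at -0.33 ± 0.08 (adjusted p = 0.0078). CSPG5 was also the 1 lower with G669043, at -0.425 ± 0.11 (adjusted p = 0.014). The CSPG5 call with Aza was lost without DMSO array 3 or either Aza array, against DMSO arrays 1 and 2 alone, and with the mean of its probe sets (-0.17, adjusted p = 0.065). That of TGFBR3 was lost without Aza array 2, and with only the groups compared the adjusted p was 0.10 for TGFBR3 and 0.085 for CSPG5. The CSPG5 call with G669043 was lost with only the groups compared (adjusted p = 0.20) and with arrays centred on their medians (adjusted p = 0.055). Without either Aza array the higher count with Aza was 2, as was that with G669043 without its array 2. The lower count with G669043 was 0 without its array 1 and 2 without DMSO array 3. At 150 nM SDC4 was the 1 core protein called higher with each compound, by 0.27 with Aza and 0.30 with G669043, and both calls were lost without either treated array. The core protein DCN was lower with G669043 at 150 nM, at -0.405, a call lost without DMSO array 1, DMSO array 2 or either treated array.

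The enzymes that build glycosaminoglycan chains moved both ways. Of 45 tested, 4 were higher and 11 lower with Aza at 1500 nM, and 3 higher and 6 lower with G669043 at 1500 nM, with medians of 0.00 and 0.02. With Aza the counts were 1 higher and 9 lower without array 1, and 2 higher and 5 lower without array 2. With G669043 they were 2 and 3 without array 1, and 1 and 2 without array 2. CHST11, which sulfates chondroitin, read 8.35 and 8.08 with Aza and 8.07 and 8.21 with G669043 at 1500 nM, against 7.02, 6.97, 7.37 and 7.15 with DMSO. It rose by 1.09 ± 0.10 with Aza (adjusted p = 4.3e-07) and by 1.01 ± 0.10 with G669043 (adjusted p = 1.4e-06), and all 3 of its kept probe sets moved the same way. HS3ST1, which adds a sulfate needed for the antithrombin-binding site of heparan sulfate, fell by 1.06 ± 0.18 with Aza (adjusted p = 3.5e-04). With G669043 its difference was -1.10 ± 0.18 (adjusted p = 5.1e-04). Of the 3 kept probe sets of HS3ST1, 2 moved that way with Aza and all 3 with G669043. At 150 nM with Aza, CHST11 was higher by 0.72 and B3GALT6, which extends the linker of the chains, was lower, at -0.425. The B3GALT6 call was lost without Aza array 2 (adjusted p = 0.063), with the mean of its probe sets (-0.25, adjusted p = 0.21), without probe sets ending in _s_at, _x_at or _a_at (-0.33, adjusted p = 0.25) and with only the groups compared (adjusted p = 0.19). With G669043 at 150 nM 0 were called by limma, where 5 were higher and 1 lower at an unadjusted p under 0.05 and, without DMSO array 3, 3 higher and 1 lower after adjustment.

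The relatives of DHRS2 included genes that rose and genes that fell. Of 51 tested short-chain dehydrogenases, DHRS2 not among them, 12 were higher and 7 lower with Aza at 1500 nM, and 8 higher and 4 lower with G669043 at 1500 nM. Medians were 0.04 and 0.02, close to those of all genes. With Aza the counts were 5 and 5 without array 1, and 7 and 5 without array 2. With G669043 they were 3 and 2 without array 1, and 2 and 1 without array 2. DHRSX, a dehydrogenase encoded in the pseudoautosomal region, read 10.12 and 9.91 with Aza and 10.11 and 10.06 with G669043 at 1500 nM, against 8.40, 8.71, 8.62 and 8.54 with DMSO. It rose by 1.45 ± 0.09 with Aza (adjusted p = 4.8e-10) and by 1.52 ± 0.09 with G669043 (adjusted p = 2.5e-10). At 150 nM the DHRSX difference was 0.11 with Aza and 0.12 with G669043, and neither was called.

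CBR1, a carbonyl reductase, set the compounds apart in the opposite sense to DHRS2. It read 5.61 and 5.66 with G669043 at 1500 nM, against 6.81 and 6.76 with Aza at 1500 nM, and was lower by 1.15 ± 0.13 on the log2 scale (adjusted p = 5.6e-05), against a background of 0.659% of genes lower in that comparison. DMSO arrays read 5.05, 5.27, 5.09 and 5.32. Against them CBR1 rose by 1.60 ± 0.11 with Aza (adjusted p = 6.3e-09) and by 0.45 ± 0.11 with G669043 (adjusted p = 0.014), and the G669043 call was lost without either of its arrays. RDH10, a retinol dehydrogenase, rose by 0.83 ± 0.13 with Aza (adjusted p = 1.1e-04) and by 0.67 ± 0.13 with G669043 (adjusted p = 0.0018), which became 0.0502 without its array 2. BDH2, a hydroxybutyrate dehydrogenase, fell by 0.98 ± 0.09 with Aza (adjusted p = 1.9e-07) and by 0.50 ± 0.09 with G669043 (adjusted p = 9.0e-04). At 150 nM 0 of the 51 were called with Aza by limma, where 5 were higher and 3 lower at an unadjusted p under 0.05, and 2 were higher with G669043, DHRS1 by 0.42 and DHRS3 by 0.37. That count was 0 without DMSO array 1 or either treated array, and 4 without DMSO array 3.

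Of 34 tested genes of p53 and its targets, 18 were higher and 0 lower with Aza at 1500 nM, and 14 higher and 0 lower with G669043 at 1500 nM, with medians of 0.31 and 0.26 against 0.03 and -0.01 for all genes. The rest were not called, and the lowest differences were -0.38 with Aza and -0.30 with G669043. At an unadjusted p under 0.05, 21 were higher and 1 lower with Aza, and 23 higher and 2 lower with G669043. No share over all genes at that threshold is given for this fit, so nothing is read from these unadjusted counts. Without G669043 array 2 the higher count after adjustment was 7. CDKN1A, which encodes the cell cycle inhibitor p21, read 11.29 and 11.23 with Aza and 11.11 and 11.09 with G669043 at 1500 nM, against 10.29, 10.19, 10.23 and 9.97 with DMSO. It rose by 1.09 ± 0.07 with Aza (adjusted p = 2.8e-09) and by 0.93 ± 0.07 with G669043 (adjusted p = 4.0e-08). TP53I3, an oxidoreductase induced by p53, rose by 1.12 ± 0.09 with Aza (adjusted p = 2.0e-08) and by 0.93 ± 0.09 with G669043 (adjusted p = 3.5e-07). The largest rises of the list were those of GDF15, by 1.45 ± 0.09 with Aza (adjusted p = 1.1e-09) and by 1.095 ± 0.09 with G669043 (adjusted p = 1.0e-07). All 3 of its kept probe sets moved that way. Without probe sets ending in _s_at, _x_at or _a_at its differences were 0.21 (adjusted p = 0.22) and 0.01 (adjusted p = 0.98).

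MDM2 itself read 10.76 and 10.79 with Aza and 10.67 and 11.01 with G669043 at 1500 nM, against 9.56, 9.59, 10.41 and 10.14 with DMSO, where the pairs of DMSO arrays stood apart. It rose by 0.85 ± 0.22 with Aza (adjusted p = 0.0096) and by 0.915 ± 0.22 with G669043 (adjusted p = 0.011). Against DMSO arrays 3 and 4 alone the adjusted p was 0.069 with Aza and 0.072 with G669043. Without G669043 array 2 it was 0.21, and without Aza array 1 or 2 it was 0.068 or 0.090. At 150 nM 4 genes of the p53 list were higher with Aza, CDKN1A, TP53I3, TP53INP1 and GDF15, and 1 with G669043, GDF15. Without probe sets ending in _s_at, _x_at or _a_at the GDF15 difference was 0.10 with Aza and -0.04 with G669043, and neither was called. The count of 4 was 2 without Aza array 1 and 1 without Aza array 2. The count of 1 was 9 without DMSO array 3 and 0 without either treated array. Between the compounds at 1500 nM, 0 of the 34 were higher and 3 lower with G669043 than with Aza, and these 3 calls were lost without any 1 of the 4 arrays.

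**Figure D4:**
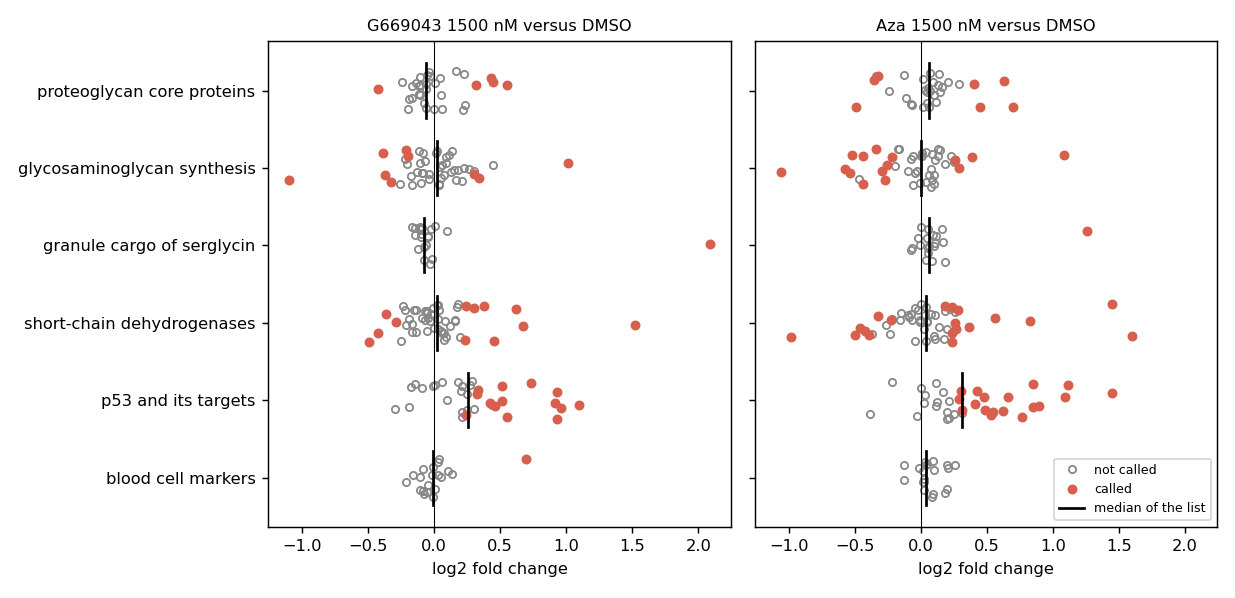
Log2 fold change against DMSO (x axis) of each tested gene in 6 lists (rows), with G669043 at 1500 nM on the left and Aza at 1500 nM on the right. Filled points passed a limma adjusted p under 0.05 and black bars are list medians, which lie at 0.26 and 0.31 for p53 and its targets and near 0 for the other lists.

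The genes beside SRGN and DHRS2 on their chromosomes were examined next. The 3 nearest tested genes on each side were KIFBP, DDX21, DDX50, VPS26A, SUPV3L1 and HKDC1 around SRGN on chromosome 10. Around DHRS2 on chromosome 14 they were AP1G2-AS1, AP1G2, ZFHX2, DHRS4-AS1, CARMIL3 and CPNE6. Of these 12, 1 was called higher and 0 lower with Aza at 1500 nM, and 1 higher and 0 lower with G669043 at 1500 nM, against 17.3% and 9.12% of all genes called either way, so these counts are no result about the neighbours. At an unadjusted p under 0.05, 1 was higher and 2 lower with Aza, and 3 higher and 0 lower with G669043. That gene was HKDC1, a hexokinase family member, which rose by 0.435 ± 0.14 with Aza (adjusted p = 0.034) and by 0.56 ± 0.14 with G669043 (adjusted p = 0.013). The call with Aza was lost without DMSO array 3, DMSO array 4 or either Aza array, and that with G669043 without either of its arrays. The 12 differences ran from -0.235 to 0.435 with Aza and from -0.16 to 0.56 with G669043. At 150 nM 0 of the 12 were called by limma with either compound, and 2 were higher at an unadjusted p under 0.05 with each.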

How the data were processed

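The authors deposited RMA intensities on a linear scale, made per the submitters' processing notes in Affymetrix Expression Console 1.1, with no detection calls, and their log2 was used here. No source used here names a genome build. Of 54675 probe sets, 41091 carried a single gene symbol in the platform annotation, 1801 several, 62 were controls and 11721 had no name. Probe sets reaching log2 5 on at least 2 arrays were kept, and the brightest stood for its gene, leaving 18055 genes. The 24 arrays were fitted with limma 3.58.1 in R 4.3.3 (a mean per group, intensity trend, Benjamini-Hochberg adjustment, threshold 0.05). The model was also run on simulated data with independent noise. Those data lack the pairs seen among the DMSO arrays, so the run does not show how the model handles them. Arrays, not reads, limit the precision, with 2 in each treated group. Python 3.11.15 and pandas 2.3.3 made the summaries.

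The genes named were all probe sets of SRGN and DHRS2, the 5 genes most like each by Pearson correlation, the 3 nearest tested genes on each side and, from each list, up to 3 called genes each way in Aza and in G669043 at 1500 nM, with MDM2 and CDKN1A. DCN, DHRS1 and DHRS3 were added after their values were seen. SRGN, DHRS2 and the lists were chosen with earlier results of these data known. The alternatives tried were the filter, probe set choice, normalization, variance trend, replicate block, beta-actin covariate, DMSO pairs, the groups in the fit and leaving out each array.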

Additional observations from a re-analysis of the deposited data

Results flagged for a closer look

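The change of DHRS2 with dose ran in opposite directions in different compounds. Both arrays at the higher dose lay above both at the lower dose with Aza and with G669043, and below them with DAC, G669071 and G668684. With Aza the difference was only 0.135 ± 0.11 (SE), and the means of its doses lay within the spread. The higher minus lower dose difference with Aza exceeded that with DAC by 0.815 log2, that with G669071 by 0.58 and that with G668684 by 0.895. The difference with G669043 exceeded that with DAC by 3.18, that with G669071 by 2.945 and that with G668684 by 3.26. These contrasts were not tested, because DHRS2 was chosen on these groups, and the doses and their ratios differ between the compounds. No DMSO array stood apart by Dixon's criterion among 64 levels examined, where chance alone marks about 1 in 20. That criterion looks for a single outlying array. It cannot mark a split into pairs such as that of the DMSO arrays, so it does not show that they were alike.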

How the results depend on the processing

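None of the 186 differences of SRGN and DHRS2 recomputed without leaving out an array changed sign, 136 stayed within 1 SD and 50 moved, and of 136 with an array left out 6 moved. The dimmer kept probe set of each gene was not among these settings. With G669043 at 150 nM SRGN differed from DMSO by -0.15 on 201858_s_at, against 0.46 on 201859_at. DHRS2 differed by 0.02 on 206463_s_at, against 0.32 on 214079_at. Of 1414 recomputed list counts, 258 moved by over 1.5 times. Depth of signal limits SRGN, whose DMSO arrays lie under log2 5. The cause of the changes below was not tested.

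With DMSO arrays 1 and 2 alone, the SRGN difference was 4.29 and 4.22 with DAC at 5 µM and 120 nM, 4.43 and 4.05 with G669071 at the higher and lower dose, 4.26 and 4.48 with G668684 at 7 µM and 150 nM, 2.38 and 2.19 with Aza at 1500 and 150 nM, and 3.62 and 0.92 with G669043 at 1500 and 150 nM. With DMSO arrays 3 and 4 alone it was 3.38, 3.31, 3.52, 3.14, 3.355, 3.575, 1.475, 1.28, 2.71 and 0.01 in the same order. With the mean of the kept probe sets it was 3.13, 3.22, 3.31, 2.98, 3.19, 3.42, 1.62, 1.33 and 2.51 in that order up to G669043 at 1500 nM, and 0.895 for G669043 against Aza at 1500 nM. DHRS2 then gave 1.71 with DAC at 5 µM, 2.11 with G669071 at the higher dose, 1.77 with G668684 at 7 µM, 1.58 and 1.43 with Aza, and 2.56 and 0.17 with G669043. The beta-actin covariate gave 0.80 for SRGN and 0.90 for DHRS2 in G669043 against Aza at 1500 nM. A second quantile normalization gave 0.18 for DHRS2 with G669043 at 150 nM.

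Deviations of same-numbered arrays from their group means correlated at -0.59 to 0.62. In a treated group of 2 arrays the deviations mirror each other. This range therefore cannot show whether the replicate numbers pair the arrays. With the replicate number as a block, the SRGN differences equalled those with DMSO arrays 1 and 2 alone (4.29, 4.22, 4.43, 4.05, 4.26, 4.48, 2.38, 2.19, 3.62 and 0.92), as the numbers 3 and 4 occur only in DMSO. Genes called under the block were 658 with Aza at 150 nM, 3121 and 5380 with G669043 at 1500 and 150 nM, and 1068 and 112 for G669043 against Aza at these doses. The crossed pairing, added after seeing the data because same-numbered arrays correlated at -0.20, called 836 genes for G669043 against Aza at 1500 nM.

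In the fit over all arrays, genes called were 3125 and 269 with Aza at 1500 and 150 nM, 1647 and 157 with G669043, and 384 and 12 between the compounds. For Aza at 150 nM the count was 547 with DMSO arrays 1 and 2 alone, 1270 with DMSO arrays 3 and 4 alone, 588 with beta-actin, 160 with arrays centred on medians and 161 without probe sets ending in _s_at, _x_at or _a_at. For G669043 at 1500 nM it was 2788 and 2501 with each DMSO pair and 1049 without those probe sets, and for Aza at 1500 nM it was 5504 with DMSO arrays 3 and 4 alone. For G669043 at 150 nM it was 5084 with DMSO arrays 1 and 2 alone, 1224 with beta-actin, 77 without the intensity trend, 46 with quantiles and 52 without those probe sets. Between the compounds at 1500 nM it was 248 with beta-actin, 589 with quantiles, 215 with medians and 216 without those probe sets, and 6 with medians at 150 nM. With only the groups compared, limma called 1305 and 21 genes with Aza, 315 and 0 with G669043, and 1200 and 1846 between the compounds. For that count of 0, an unadjusted p under 0.05 gave 868 higher and 705 lower. The split of higher against lower calls moved with scaling. For Aza at 150 nM it was 186 to 83, 128 to 32 with medians and 182 to 155 with quantiles. For G669043 at 1500 nM it was 1061 to 586, 980 to 312 with medians and 995 to 823 with quantiles, and at 150 nM 128 to 29, and 27 to 19 with quantiles. Between the compounds at 1500 nM it was 265 to 119, and 178 to 37 with medians. Without those probe sets BDH1 with G669043 at 1500 nM (0.19) and GDF15 with G669043 at 150 nM (-0.040) changed sign.

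Leaving out each array in turn gave 1643 to 3577 and 56 to 393 genes with Aza at 1500 and 150 nM, 576 to 1687 and 3 to 961 with G669043, and 47 to 197 and 5 to 9 between the compounds. The SRGN difference then ran from 3.58 to 4.02 and 3.49 to 4.04 with DAC, 3.72 to 4.16 and 3.34 to 3.78 with G669071, 3.56 to 3.99 and 3.78 to 4.22 with G668684, 1.68 to 2.11 and 1.48 to 1.92 with Aza, and 2.91 to 3.35 and 0.21 to 0.65 with G669043, the higher dose first. That of DHRS2 ran from 2.55 to 2.85 with DAC at 120 nM, from 0.17 to 0.47 with G669043 at 150 nM, and between the compounds from 0.995 to 1.155 at 1500 nM and from -1.44 to -1.14 at 150 nM.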
